A study of Mus musculus and Homo sapiens with 10 samples.

Results

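The growth genes JUN, JUNB, FOS, FOSL1 and MYC were examined in human mammary epithelial cells for peaks of the upstream binding factor (UBF) and of RNA polymerase I (Pol I). Their peaks were those of the 3 human lists that overlapped the gene on hg19, widened by a margin of 5 kb on both sides. This gave 27 peaks of 51046 in the 3 lists: 10 of 9478 UBF peaks of HMEC, 14 of 32274 UBF peaks of HMLER and 3 of 9294 Pol I peaks of HMEC. The 5 genes were chosen by the presence and extent of UBF peaks in these same lists, so the counts, positions and widths given here describe the genes and were not tested.

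The series mapped UBF, Pol I and other chromatin features by chromatin immunoprecipitation and sequencing (ChIP-seq) in 10 samples. HMEC is a line of primary mammary epithelial cells immortalized by TERT, the catalytic subunit of telomerase. HMLER is an isogenic line derived from HMEC expressing TERT, the large-T antigen of SV40 and HRASV12G, an oncogenic form of HRAS. It forms tumours in nude mice, and TERT is common to both lines. The UBF antibody was a rabbit polyclonal against UBF1/2, and the Pol I antibodies were rabbit polyclonals against the largest subunit, POLR1A. A single list of called peaks stands for each combination of antibody and line that was mapped, without score, height or read count. The depth is therefore unknown and there is no replicate error. The 10 samples include none of Pol I in HMLER.

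UBF is an architectural protein with HMG boxes, known for keeping the ribosomal RNA genes open for Pol I. Pol I itself transcribes the large ribosomal RNA precursor in the nucleolus, whereas the 5 genes here are protein-coding and are read by RNA polymerase II. JUN, JUNB, FOS and FOSL1 encode basic leucine zipper proteins of the AP-1 family, which bind DNA as dimers of a JUN member with a FOS or another JUN member. MYC encodes a basic helix-loop-helix factor that pairs with MAX and is known for raising ribosome production. These genes are known to respond to growth factor signalling through RAS and ERK, and several are immediate early genes, switched on within minutes of serum or growth factor.

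The whole lists differed before any gene was considered. The UBF list of HMLER was 3.41 times as long as that of HMEC. Its peaks averaged 1183 bp (38.2 Mb in sum), and those of HMEC averaged 553 bp (5.24 Mb in sum). A wider or additional peak in HMLER at a single gene therefore has to be read against a list that was longer and wider throughout. Cut into 15-kb tiles, which are about the size of a gene here with its margins, the genome held an HMEC UBF peak in 4.15% of tiles, an HMLER UBF peak in 12.9% and a Pol I peak in 4.33%. Both UBF lists had a peak in 2.82% of tiles. These tiles took no account of genes or promoters, and at all 5 genes both UBF lists had a peak because the genes were chosen that way.

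In each of the 5 genes the UBF peaks of HMEC lay within peaks of HMLER, apart from 50 bp of 1 peak at JUNB, and the HMLER peaks reached further on every side but one. All 10 HMEC peaks overlapped an HMLER peak by at least 1 bp, against 56.8% over the whole HMEC list. Of these, 9 lay wholly inside an HMLER peak, against 49.1% over the list. The exception was the most upstream HMEC peak of JUNB, of which 90.2% was covered. The 10 HMEC peaks were met by 7 of the 14 HMLER peaks. Over the whole HMLER list, 14.6% of peaks met an HMEC peak. The genes were chosen by the presence and extent of UBF peaks in these lists, so the whole lists are no fair background for these shares. JUN had 1 HMEC peak and the other 4 genes had 2 or 3. Of the tiles with both UBF lists, 17.5% held 2 or more, but the tiles were neither placed around genes nor chosen by extent.

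**Figure D1:**
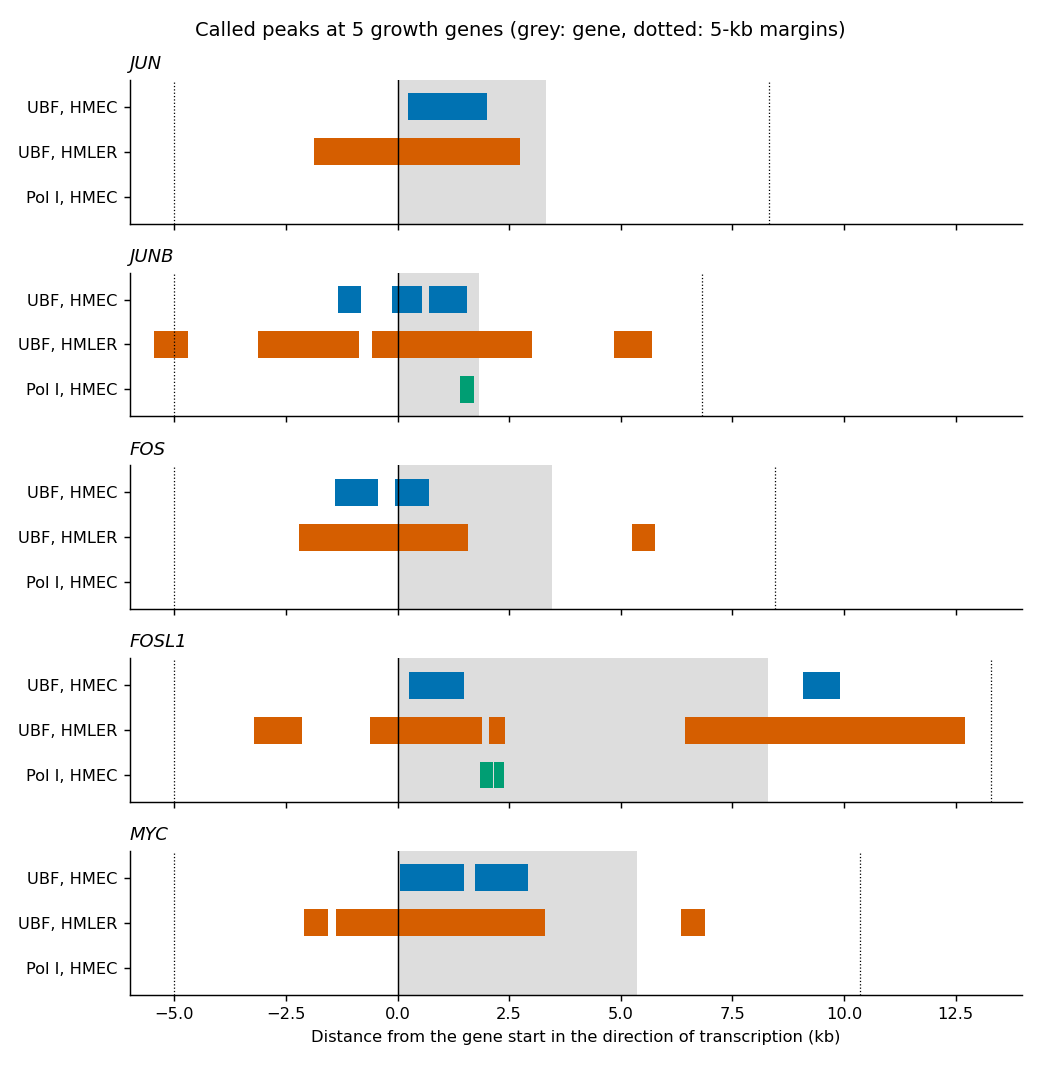
Called peaks at JUN, JUNB, FOS, FOSL1 and MYC, with the distance from the gene start in the direction of transcription in kb on the x axis and 1 row per list. Grey marks the gene, dotted lines the 5-kb margins and each bar 1 peak. The HMLER bars cross the gene start at all 5 genes, the HMEC UBF bars at JUNB and FOS, and Pol I bars are seen at JUNB and FOSL1.

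JUN encodes c-Jun, a core subunit of AP-1. It lies on the minus strand of chromosome 1, from 59246463 to 59249785, so that its start is the higher coordinate. HMEC had 1 UBF peak there, from 59247772 to 59249560, which was 1788 bp wide and lay wholly inside the gene, beginning 225 bp downstream of the start. This was the widest of the 10 HMEC peaks at the 5 genes, and 99.2% of the HMEC list was narrower. HMLER also had 1 peak, from 59247049 to 59251654, with a width of 4605 bp. It contained the HMEC peak and went 2094 bp beyond it on the upstream side and 723 bp beyond it on the downstream side. As a result 82.4% of the gene lay under UBF in HMLER and 53.8% in HMEC, and the start lay under UBF in HMLER alone. Beyond the margin of JUN, the next HMEC UBF peak was 119 kb away, the next HMLER peak 24.9 kb away and the nearest Pol I peak 314 kb away.

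JUNB encodes a JUN family member that in many settings restrains c-Jun. It lies on the plus strand of chromosome 19, from 12902310 to 12904125, and is the shortest of the 5 genes at 1815 bp. HMEC had 3 UBF peaks, more than at any of the other 4 genes. The most upstream, from 12900985 to 12901496, lay wholly upstream, ending 814 bp before the start. The middle one, from 12902190 to 12902863, crossed the start. The last, from 12903007 to 12903873, lay inside the gene. Their widths were 511, 673 and 866 bp, which made the most upstream the narrowest HMEC peak at the 5 genes.

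HMLER had 4 UBF peaks at JUNB, with widths of 756, 2259, 3578 and 867 bp. The widest, from 12901744 to 12905322, covered the whole gene and took in the middle and last HMEC peaks together with the 144 bp between them. The peak from 12899187 to 12901446 met the upstream HMEC peak, which ended 50 bp beyond it. Those 2 HMLER peaks were separated by 298 bp, so that the upstream site stayed apart from the gene in both lines. The other 2 HMLER peaks lay 4698 bp upstream and 3024 bp downstream of the gene and met no HMEC peak. In the GRCm38 mouse gene table Prdx2 lies within 5 kb of Junb. The human neighbours were not located here.

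FOS encodes c-Fos, which binds DNA as a dimer with a JUN protein. The gene is on the plus strand of chromosome 14, from 75745481 to 75748937. Both HMEC UBF peaks were at its 5′ side: one from 75744084 to 75745032 (948 bp), ending 449 bp before the start, and one from 75745424 to 75746195 (771 bp), which crossed the start. The gap between them was 392 bp. In HMLER a single peak from 75743272 to 75747051 (3779 bp) took in both and the gap. It went 812 bp beyond them upstream and 856 bp downstream, which was close to even. The 3′ part of FOS was free of UBF peaks in both lists, and 20.7% of the gene was covered in HMEC and 45.4% in HMLER. A second HMLER peak, 516 bp wide, lay 1805 bp downstream of the gene.

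FOSL1 encodes FRA-1, a FOS family member that is known to accumulate under sustained RAS and ERK signalling. It lies on the minus strand of chromosome 11, from 65659692 to 65667997, and at 8305 bp is the longest of the 5. Its UBF peaks fell at the opposite ends of the gene. At the 5′ end HMEC had a peak from 65666502 to 65667749 (1247 bp), which began 248 bp downstream of the start, and HMLER had a peak from 65666113 to 65668616 (2503 bp) that contained it and crossed the start. Past the 3′ end, HMEC had a peak from 65658081 to 65658920 (839 bp) that lay 772 bp outside the gene. HMLER had there its widest peak at any of the 5 genes, from 65655278 to 65661557 (6279 bp), of which 29.7% lay in FOSL1. It ranked 21 by width among the 32274 peaks of its list.

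The 3′ peak of FOSL1 was also where the lists differed by the largest factor among the 5 genes, at 7.48 times the HMEC width. In the GRCm38 mouse gene table Ccdc85b overlaps Fosl1 and Fibp lies within 5 kb of it. Whether a neighbouring human gene lies under the 6279-bp peak was not tested, so it cannot be assigned to FOSL1 itself. HMLER had 2 further peaks at FOSL1 that met no HMEC UBF peak. One, from 65665595 to 65665957, was 362 bp wide and lay inside the gene 156 bp from the 5′ peak. The other was 1071 bp wide and lay 2137 bp upstream of the start.

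MYC lies on the plus strand of chromosome 8, from 128748315 to 128753680. HMEC had 2 UBF peaks, both wholly inside the gene: one from 128748379 to 128749806 (1427 bp), beginning 64 bp after the start, and one from 128750045 to 128751228 (1183 bp). They were 239 bp apart. In HMLER a single peak from 128746925 to 128751617 (4692 bp) took in both, with 1454 bp more on the upstream side and 389 bp more on the downstream side. The 3′ part of MYC had no UBF peak in either list, as at FOS. MYC had the smallest widening of the 7 shared sites, at 1.8 times the summed HMEC width. Narrow HMLER peaks of 544 bp and 522 bp lay 1555 bp upstream and 994 bp downstream of the gene, without an HMEC peak.

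Across the 5 genes, the start was under a UBF peak in 2 genes in HMEC (JUNB and FOS) and in 5 genes in HMLER. The difference at the other 3 genes was short: the HMEC peaks of MYC, JUN and FOSL1 began 64, 225 and 248 bp inside the gene. With every peak set to 500 bp around its centre, a setting added once the data had been seen, the start was covered in 1 gene in HMEC and in 0 genes in HMLER. The crossing of the start in HMLER thus rested on the outer parts of wide called peaks, which this setting removes by construction. Pol I peaks covered none of the 5 starts, counted on the peaks as deposited.

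Neighbouring HMEC peaks were often joined in HMLER. Within these genes 4 pairs of HMEC UBF peaks were under 1 kb apart, and 3 of them lay under 1 HMLER peak: the pair at FOS, the pair at MYC and the inner pair at JUNB. Over the whole HMEC list 72.2% of 817 such pairs were joined in this way, so the share at these genes was near that of the list. Of the 7 HMLER peaks that met an HMEC peak, 3 met 2 of them, against 12.5% of all 4726 shared HMLER peaks. That share is no fair background, since the genes were chosen by the extent of UBF peaks.

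**Figure D2:**
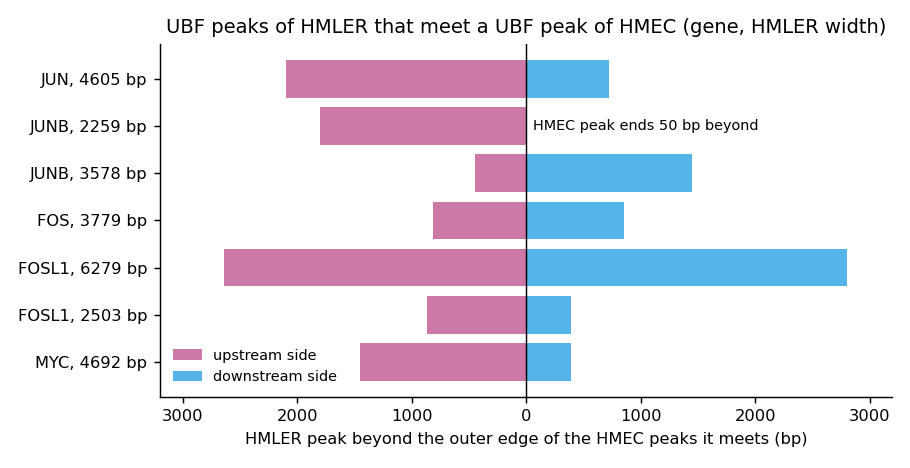
Length in bp by which each of the 7 HMLER UBF peaks that met an HMEC UBF peak reached beyond the outer HMEC edges, on the upstream (left) and downstream (right) side of the gene's direction. Labels give the gene and the width of the HMLER peak. The longest extensions, 2637 and 2803 bp, are those of the 3′ peak of FOSL1, and the upstream peak of JUNB has none downstream.

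The extension was not one-sided over the 5 genes. The HMLER peak reached further on the upstream than on the downstream side at JUN, MYC, the 5′ peak of FOSL1 and the upstream peak of JUNB. At the JUNB gene peak the downstream side was longer, at 1449 bp against 446 bp. At FOS and at the 3′ peak of FOSL1 the sides were nearly even. Relative to the HMEC bases they contained, the 7 HMLER peaks were 1.8 to 7.48 times as wide, with a median of 2.32. Over all 4726 shared HMLER peaks the median was 2.92 (quartiles 2.12 and 4.15). The factor exceeded 96.5% of shared peaks at the 3′ end of FOSL1, 78.5% at the upstream peak of JUNB and 15.6% to 40.3% at the other 5.

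The HMEC peaks at these genes were wide for their list, but the genes were chosen by the extent of UBF peaks. The whole lists are therefore no fair background for the UBF widths of either line. Their widths ran from 511 to 1788 bp with a median of 907 bp, against a median of 469 bp over the list, and all 10 were above that median. Of the 10, 9 were in the widest 25% of the list, the exception being the upstream peak of JUNB. The HMLER peaks fell into separate ranges. The 7 that met an HMEC peak were 2259 to 6279 bp wide and all 7 were in the widest 25% of the HMLER list. The 7 that met none were 362 to 1071 bp wide, and 6 of them were below the list's median of 982 bp. A gap in width between shared and unshared HMLER peaks ran through the list as a whole, with medians of 1761 and 900 bp.

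**Figure D3:**
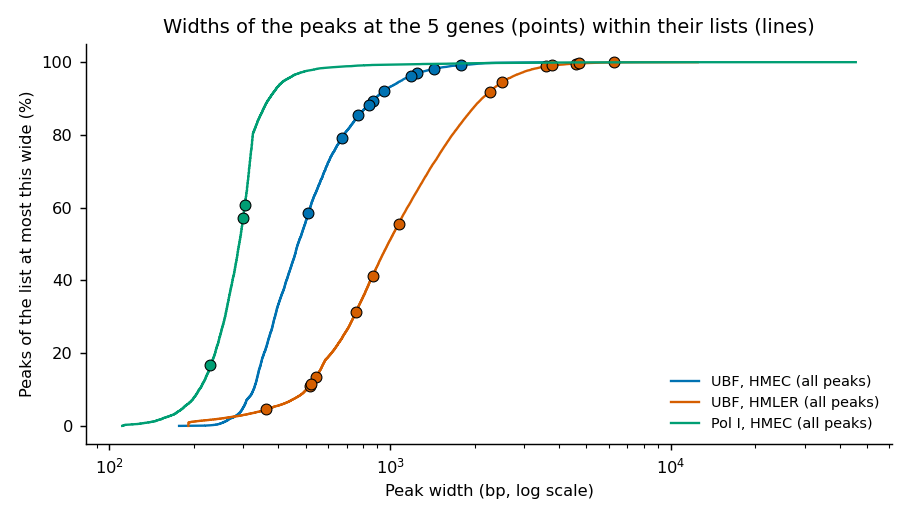
Peak width in bp (log scale) against the percentage of the list that is at most as wide. Lines are the whole lists and points the peaks at the 5 genes. The 10 HMEC UBF points lie from 511 to 1788 bp in the upper part of their line, the HMLER points form a wide group from 2259 bp and a narrow group up to 1071 bp, and the 3 Pol I points lie from 229 to 303 bp.

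Measured as bases under UBF, the windows of the 5 genes with their margins held 10253 bp in HMEC and 31879 bp in HMLER, of 72263 bp in all. In HMEC the covered share ran from 11.4% at FOSL1 through 12.8% at FOS, 13.4% at JUN and 17.0% at MYC to 17.4% at JUNB. In HMLER the order was different, from 31.9% at FOS through 34.6% at JUN, 37.5% at MYC and 55.8% at FOSL1 to 59.3% at JUNB. By share, JUNB was thus the most covered in both lines, and FOSL1 moved from the least covered of the 5 to the next most covered. The shares depend on window length, which ran from 11815 bp at JUNB to 18305 bp at FOSL1. In bases, HMEC UBF was longest at MYC (2610 bp), with 2086 bp at FOSL1 and 2050 bp at JUNB. HMLER UBF was longest in bases at FOSL1, with 7006 bp at JUNB. Of the 10215 bp under HMLER UBF in the FOSL1 window, 6279 bp belonged to the 3′ peak, which cannot be assigned to FOSL1 itself. With 1 list per line the spread of such shares between cultures is unknown.

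The ratio of HMLER to HMEC bases was 4.90 at FOSL1, 3.42 at JUNB, 2.58 at JUN, 2.50 at FOS and 2.21 at MYC. HMLER thus held more bases than HMEC at all 5 genes, as did 95.5% of the tiles with both UBF lists. The ratio at FOSL1 includes its 3′ HMLER peak of 6279 bp. Over the 5 windows together the ratio was 3.11, and over the whole lists 7.29. The whole-list ratio includes the many places where HMEC has no peak. Among the 5699 tiles with a peak in both UBF lists, the median ratio was 3.20 (quartiles 2.12 and 4.95), and all 5 genes lay between these quartiles. The covered share itself was high: in HMEC the 5 genes were covered more than 97.0% to 99.4% of these tiles, and in HMLER more than 94.5% to 99.7%. Tiles with both lists had median shares of 3.47% in HMEC and 12.5% in HMLER. That extent is part of how the genes came to be chosen.

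**Figure D4:**
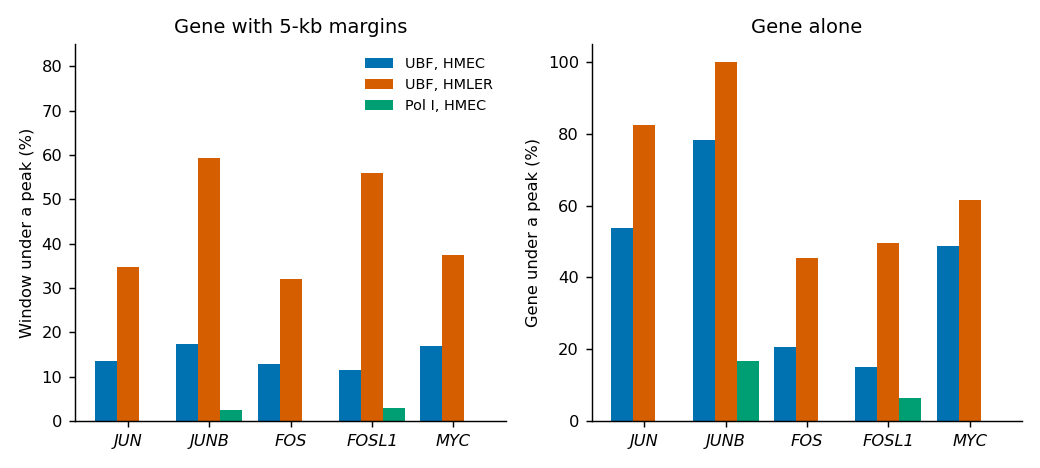
Percentage of each gene with its 5-kb margins (left) and of the gene alone (right) under a called peak, with 1 bar per list and no error bar since there is 1 list each. JUNB has the tallest UBF bars in both panels, with 100% of the gene under HMLER UBF, and the Pol I bars are seen at JUNB and FOSL1.

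Within the genes alone, UBF covered 34.9% of 22263 bp in HMEC and 60.8% in HMLER. The ratio there was 1.74, below the 3.11 of the windows. Of the 14 HMLER peaks, 7 lay wholly outside the gene they were counted for, 6 lay partly in it and reached past it, and the 362-bp peak of FOSL1 lay wholly inside. At JUNB the gene itself was covered at 78.2% in HMEC and 100% in HMLER, and at MYC at 48.6% and 61.5%. At FOSL1 the values were 15% and 49.5%, and 1865 of the 4111 gene bp under HMLER UBF belonged to the 3′ peak.

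Pol I peaks of HMEC were found at 2 of the 5 genes, JUNB and FOSL1. Of the tiles with both UBF lists, 15.2% also held a Pol I peak. At JUNB the Pol I peak ran from 12903710 to 12904013 (303 bp) in the 3′ part of the gene and shared 163 bp with the last HMEC UBF peak. This was the single overlap of UBF and Pol I in HMEC at these genes, 1 of 10 UBF peaks against 2.72% of the list. The genes were chosen by the extent of UBF peaks, so the list is no fair background for that share. At FOSL1 there were 2 Pol I peaks, from 65665611 to 65665840 (229 bp) and from 65665854 to 65666153 (299 bp), only 14 bp apart. They lay inside the gene 349 bp and more from the HMEC UBF peak at the 5′ end and did not overlap it.

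Against the HMLER list the picture at FOSL1 was different. The narrow HMLER UBF peak of 362 bp met both Pol I peaks, with 332 bp in common, and the 5′ HMLER peak met the wider of them by 40 bp. Of all HMLER UBF peaks, 3.47% met a Pol I peak, and 3 of the 14 at these genes did. All 3 Pol I peaks at the 5 genes therefore overlapped UBF of HMLER, while 1 of 3 overlapped UBF of HMEC. Over the Pol I list the shares were 12.4% and 2.86%. The lists are no fair background here, since the genes were chosen by the presence and extent of UBF peaks. HMLER UBF covered 59.3% of the JUNB window and 55.8% of the FOSL1 window. The Pol I peaks at FOSL1 lay 14 bp apart, so the 3 peaks are not 3 separate sites. No excess of Pol I at UBF can be read from these counts. UBF and Pol I come here from different lines, and Pol I was not read in HMLER. Of the 3 Pol I peaks, those of 299 and 303 bp were near the list's median of 290 bp. The 229-bp peak was on the narrow side, with 16.2% of the list narrower still. None of the 3 was in the widest 25% of its list.

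JUN, FOS and MYC had no Pol I peak within the margin. Their HMEC UBF peaks were 771 to 1788 bp wide, against 511 to 1247 bp at JUNB and FOSL1. These ranges overlapped, and a relation of UBF width to Pol I was not tested. The nearest Pol I peak was 314 kb from JUN, 43.6 kb from FOS and 9.72 kb from MYC. The last ran from 128738015 to 128738593, upstream of MYC, was 578 bp wide and overlapped no UBF peak of either line. No called peak is not a measure of absence, since the threshold of the list is unknown.

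The number of HMEC UBF peaks was 10 with margins of 5 and of 10 kb, and 7 without a margin. The most distant HMEC peak counted lay 814 bp from its gene (JUNB), and the nearest one left out was 30.9 kb from FOSL1. In the other genes the next HMEC peak was 52.5 kb (MYC), 119 kb (JUN), 151 kb (JUNB) and 152 kb (FOS) away. These distances skip the peaks counted at the gene. The median from any HMEC peak to its nearest neighbour was 36.6 kb, which counts every neighbour and is an unlike measure. By that measure, gaps between HMEC peaks were 144 and 694 bp at JUNB, 392 bp at FOS, 239 bp at MYC and 7582 bp at FOSL1. The HMLER peaks were less sharply bounded, and their list was denser, with a median of 9.21 kb from a peak to its nearest neighbour. The most distant HMLER peak counted lay 4698 bp from JUNB. The nearest ones left out lay 6.93 kb from JUNB, 10.7 kb from FOSL1 and 11.3 kb from FOS. Around MYC and JUN the next HMLER peaks were 51.9 kb and 24.9 kb away.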

How the data were processed

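Each file the authors deposited holds the chromosome, start and end of the peaks of 1 antibody in 1 line and no other value, per the file headers. Per the submitters' processing notes, CASAVA 1.8.2, BWA, Picard and the builds hg19 and mm9 belong to the processing. The peak calling, its threshold and any pooling of replicates remain not given in the sources used here. Mouse lists, 7 in number, were not used here. Gene intervals were those of the hg19 positions given for the 5 genes, and strands were taken from general knowledge of the genes. Whether file positions count from 0 or 1 is not given. Peaks sharing at least 1 bp were called overlapping, widths are end minus start, and covered bases were cut at the window's edges. Tiles of 15 kb were laid from the first base of chromosomes 1 to 22 and X. A percentage of a list is over its peaks, which are not replicates. The genes and measures were chosen with earlier results of these data known. Python 3.11.15 with pandas 2.3.3 was used, and the overlap code was tested on simulated peaks.

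Alternatives were no margin, a 10-kb margin, the wider 50% of each list, the 9478 widest HMLER peaks alone, at least 50% of the HMEC peak covered, and all peaks set to 500 bp. The rule for named genes took the 5 members. Other AP-1, MYC and immediate early genes were not located here, since no hg19 gene table was used.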

Additional observations from a re-analysis of the deposited data

How the results depend on the processing

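Of 26 recomputed values, 19 stayed within 1.5 times the reported one. The count of HMLER UBF peaks moved from 14 to 7 without the margin, to 8 in the wider 50% of each list and to 7 with the widest 9478 HMLER peaks alone. HMLER bases moved from 31879 to 13534 without the margin, which removes the flanks by construction. The 10 HMEC peaks that overlapped HMLER stayed 10 with at least 50% covered and with the reduced HMLER list. Neither setting could change this: 9 lay wholly inside an HMLER peak and the other was 90.2% covered. The narrowest shared HMLER peak ranked 2625 by width, within the 9478 kept. With all peaks set to 500 bp, an alternative chosen after seeing the data, the count fell to 4 of 10. With that setting the gene starts under UBF numbered 1 in HMEC, down from 2, and 0 in HMLER, down from 5, while the reduced HMLER list kept 5. This setting keeps only the middle 500 bp of each wider peak, so it removes the outer parts by construction. Why the HMLER peaks were called wider was not tested. No paired analysis was possible because no antibody has more than 1 list in a line, and the result comes from no test. Depth is unknown, so no peak could be weighed by its reads.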
